A study of Mus musculus with 19 samples.

Results

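The comparison described here followed the aorta of wild-type mice from 30 to 60 days of age. The tissue was the whole aorta of male C57BL/6 mice carrying no engineered allele, sampled on day 30 (4 libraries by the labels) and on day 60 (2 libraries), which is 6 of the 19 samples of the study. The study was built around Fbn1 mgR/mgR mice, hypomorphs that make too little fibrillin-1 and serve as a model of Marfan syndrome; their values at the same ages (4 and 3 libraries) and those of wild type at 16 days (3 libraries) are given only beside a wild-type result. Polyadenylated RNA had been sequenced from both ends of each fragment, and the authors deposited 1 pooled value per gene and group in FPKM, which scales fragments to transcript length and library total. All genes above 0 at both ages and with a mean of at least 1 FPKM were taken, 13729 of the 37668 listed. Of the rest, 16875 were listed at 0 at one age or both and 7064 lay below that mean.

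Each value is 1 pooled figure for a group, and which of the group's libraries entered the pool is not given in the sources used here. There is therefore no SD, no replicate check of a difference and no p-value. The depth behind each value is unknown. The 2 ages stood in separate tables that were normalised separately, so every 60-day wild-type value printed here was multiplied by 1.06, the median ratio of 9098 genes with at least 5 FPKM at both ages, and age cannot be told apart from table. Folds are plain ratios of these FPKM values. Log2 differences are log2(FPKM + 1) at 60 days minus that at 30 days, which understates the change of low genes, and counts of genes past 1.5-fold or 2-fold use this second scale. In each gene list the members counted are those that met the same conditions, and a gene can meet the mean through the age at which it is high. A fall in a whole tissue can mean fewer cells of a type or less RNA per cell, and these cannot be told apart.

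The wall of the aorta is made of layers of smooth muscle between elastic sheets, lined by endothelium and wrapped in a fibroblast-rich adventitia. In young mammals the smooth muscle cells and fibroblasts divide and lay down collagen and elastin, and this building slows as the animal approaches its adult size. Collagen chains are hydroxylated and folded in the endoplasmic reticulum, trimmed outside the cell and then cross-linked by lysyl oxidases. The tissue label was met by the markers: Myh11, smooth muscle myosin, stood at 854 and 798 FPKM, and Tagln, an actin-binding protein of the same cells, at 3916 and 3676 FPKM. All 4 Y-linked genes examined were present at both ages.

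The typical gene moved little. The median log2 difference over the 13729 genes was -0.01, with quartiles of -0.19 and 0.19. Past 2-fold lay 132 genes on the higher side at 60 days (0.961%) and 75 on the lower side (0.546%), while 655 (4.77%) were at least 1.5-fold higher and 499 (3.63%) at least 1.5-fold lower. The last 2 shares are the background for every count of wild-type list members past 1.5-fold given below. Which side had more 2-fold genes depended on the scaling. The higher genes made up 63.8% of them as given here, 47.8% without rescaling (96 higher and 105 lower), 52.0% when the ratio came from genes of at least 50 FPKM (104 and 96) and 38.8% when the sums of FPKM were made equal (80 and 126).

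**Figure D1:**
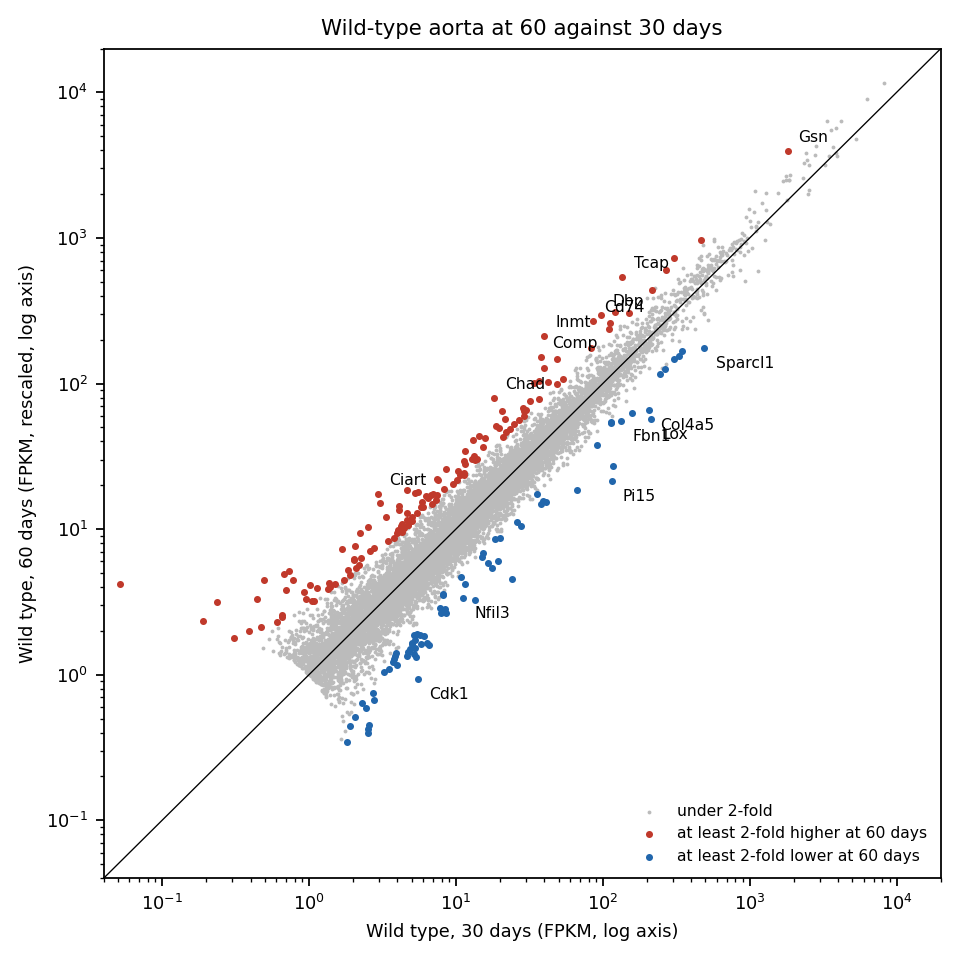
FPKM of each of the 13729 genes in wild-type aorta at 30 days (horizontal, log axis) and 60 days (vertical, rescaled, log axis), 1 pooled value per age, with the line of equal values. Most genes lie on the line; 132 (red) were at least 2-fold higher and 75 (blue) at least 2-fold lower on the log2(FPKM + 1) scale.

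The 15 largest positive differences held a methyltransferase, a clock repressor, cartilage-type matrix proteins and genes of antigen presentation. Inmt, which transfers methyl groups to tryptamine and related amines (mm9 chr6:55120620-55125037), stood at 39.7 FPKM at 30 days and 212 FPKM at 60 days, a 5.34-fold difference. Tcap, which encodes the titin cap protein of muscle sarcomeres (chr11:98245125-98246267), stood at 136 FPKM at 30 days and 541 FPKM at 60 days, 3.97-fold higher. Myoc, a secreted glycoprotein, went from 4.65 to 18.6 FPKM. For these 3 genes the 16-day values, put on the 30-day scale, were 16.03, 110.2 and 6.902 FPKM. Low at 30 days were Mrgprg, an orphan receptor of the Mas-related family (0.491 to 4.49 FPKM), Chil1, a secreted chitinase-like lectin (1.67 to 7.29 FPKM), Fetub, a fetuin-family protease inhibitor (0.784 to 4.51 FPKM), and Igkc, the constant part of the kappa light chain (2.54 to 10.4 FPKM). Prg4, which encodes the lubricant proteoglycan of joints, stood at 20.7 FPKM at 30 days and 64.5 FPKM at 60 days.

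The 15 most negative differences were mostly secreted and matrix proteins. Pi15, a secreted protein of the CAP family named as a peptidase inhibitor (chr1:17591982-17621019), had the most negative value of the genes with a symbol, at 115 FPKM at 30 days and 21.5 FPKM at 60 days, 5.37-fold lower. C1qtnf6, a secreted protein related to complement C1q and tumour necrosis factor (chr15:78353776-78360055), stood at 117 FPKM at 30 days and 26.95 FPKM at 60 days. Sparcl1, a matricellular relative of SPARC (chr5:104508130-104548706), was the most abundant of them, at 492 FPKM at 30 days and 174 FPKM at 60 days, and had been at 69.8 FPKM at 16 days. Pi15 and C1qtnf6 had stood at 224 and 193 FPKM at 16 days, so for both the 60-day value was the lowest of the 3 ages and the 16-day value the highest. Nrep, a small intracellular protein studied in wound healing and nerve repair, went from 67.1 to 18.6 FPKM, and Adamts12, a secreted metalloprotease, from 6.55 to 1.59 FPKM. Further members of this set were Galnt6, which starts mucin-type O-glycans (13.5 to 3.28 FPKM), Rasl11a, a small Ras-like GTPase (17.7 to 5.41 FPKM), Cdh6, a cadherin (5.34 to 1.33 FPKM), and Ky, a muscle protein (8.58 to 2.66 FPKM). Of these 30 genes, 19 had the authors' status OK at both ages, and 4 share their span with another expressed gene.

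The collagens were lower at 60 days. Of 11 fibrillar collagen genes, 6 could be compared, and 3 of these were at least 1.5-fold lower against 1 higher, with a median log2 difference of -0.50. Col5a1 and Col5a2, chains of the type V collagen that starts and limits the width of collagen fibrils, stood at 247 and 117 FPKM and at 268 and 135 FPKM at 30 and 60 days, 2.11-fold and 1.98-fold lower. Col5a3, another chain of that collagen, went from 10.5 to 6.07 FPKM. Col11a2, a minor chain best known from cartilage, was the exception, at 5.59 and 9.76 FPKM. The most abundant fibrillar chains cannot be described: Col1a1, Col1a2 and Col3a1 were listed at 0 at 30 days against 1931, 1653 and 1194 FPKM at 60 days, as were Eln and Acta2 (998 and 4513 FPKM at 60 days). For genes this abundant a 0 can be a failed estimate, and they were left out.

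The 21 other collagens compared showed the same side, with 8 at least 1.5-fold lower, 1 higher and a median of -0.52. Type IV collagen is the network former of basement membranes, the thin sheets that surround each smooth muscle cell and underlie the endothelium. Its α5 chain, Col4a5 (chrX:137909928-138123778), stood at 207 FPKM at 30 days and 65.4 FPKM at 60 days, 3.16-fold lower. Col4a1 and Col4a2, the chains of the commonest network, stood at 329.5 and 153 FPKM and at 266 and 125 FPKM; the listed spans of these 2 genes overlap. All 6 type IV chains were lower, from -0.37 for Col4a4 to -1.65 for Col4a5. Col15a1, a basement membrane collagen that bridges to the fibrils outside, went from 524 to 272 FPKM. The 3 main type VI chains, which form beaded microfibrils next to cells, were lower as well: Col6a1 stood at 372 and 241 FPKM, Col6a2 at 414 and 285 FPKM and Col6a3 at 333 and 197 FPKM. Col14a1 and Col12a1, collagens that attach to the surface of fibrils, stood at 233 and 275 FPKM and at 12.4 and 18.3 FPKM, on the other side of 0. Col8a1, a short-chain collagen, was higher by less than 1.5-fold (8.91 and 12.4 FPKM), and its partner Col8a2 was the only collagen of this list at least 1.5-fold higher (4.24 and 9.85 FPKM). Col18a1, the source of endostatin, stood at 469 and 319 FPKM.

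Basement membrane genes, a list put together after the values had been seen, lay on the same side. Of 21 compared, 7 were at least 1.5-fold lower and none higher, with a median of -0.46, but the counts include the type IV and XV collagens just named. Pxdn, the peroxidasin that forms sulfilimine cross-links in type IV collagen, stood at 41.2 FPKM at 30 days and 15.3 FPKM at 60 days, 2.701-fold lower. Lama5 and Lamc1, laminin chains, stood at 97.4 and 65.1 FPKM and at 145 and 105 FPKM. Lamb2, the laminin β2 chain, and Lama4, the α4 chain of vessel laminins, were on the other side, at 178 and 218 FPKM and at 70.1 and 73.5 FPKM.

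Among the genes that make and cross-link collagen the lysyl oxidase stood apart from the rest. Lox, the oxidase that cross-links collagen and elastin, stood at 212 FPKM at 30 days and 57.2 FPKM at 60 days, 3.700-fold lower, after 364 FPKM at 16 days. Loxl2, a relative that acts on type IV collagen, went from 58.7 to 35.7 FPKM, while Loxl1, the relative most tied to elastin, stood at 319.6 and 279 FPKM. Plod2, which hydroxylates the lysines of collagen ends, stood at 43.2 and 25.8 FPKM. Only these 3 (Lox, Loxl2 and Plod2) of the 27 genes compared were at least 1.5-fold lower and none was higher, against 3.63% and 4.77% over all genes; the median was -0.19. The chaperone Serpinh1 stood at 765 and 551 FPKM. The prolyl hydroxylase subunits P4ha1 and P4hb stood at 47.3 and 43.4 FPKM and at 454 and 394 FPKM, and the procollagen proteases Bmp1 and Adamts2 at 125 and 107 FPKM and at 166 and 124 FPKM. Pcolce, which speeds the trimming by Bmp1, was on the higher side at 438 and 657 FPKM.

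Elastic fibre genes did not move as one. Fbn1, which encodes fibrillin-1, stood at 134 FPKM at 30 days and 55.7 FPKM at 60 days (chr2:125126330-125333729), 2.41-fold lower, and at 145 FPKM at 16 days. The list of 26 compared genes had 3 at least 1.5-fold lower (Fbn1, Lox and Adamts17, a secreted metalloprotease at 3.96 and 1.16 FPKM), 4 higher and a median of 0.09, which turns to -0.04 when sums of FPKM are made equal. Mfap2 and Mfap5, glycoproteins of the microfibril, stood at 86.8 and 60.1 FPKM and at 860.4 and 599.6 FPKM. Mfap4, which binds elastic fibres, was level at 1304 and 1283 FPKM. Fbln5, needed to assemble elastin onto microfibrils, stood at 203 and 169 FPKM and Emilin1, at the border of elastin and microfibril, at 143 and 157 FPKM. The higher members were Fbln1, a fibulin of elastic fibres and basement membranes, at 216 and 441 FPKM, Efemp1, fibulin-3, at 22.02 and 46.7 FPKM, Vtn, vitronectin, at 1.197 and 2.43 FPKM, and Adamtsl5 at 59.3 and 94.4 FPKM. Ltbp4, which holds latent TGF-beta and helps elastin assembly, stood at 949.9 and 1385 FPKM, under 1.5-fold.

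**Figure D2:**
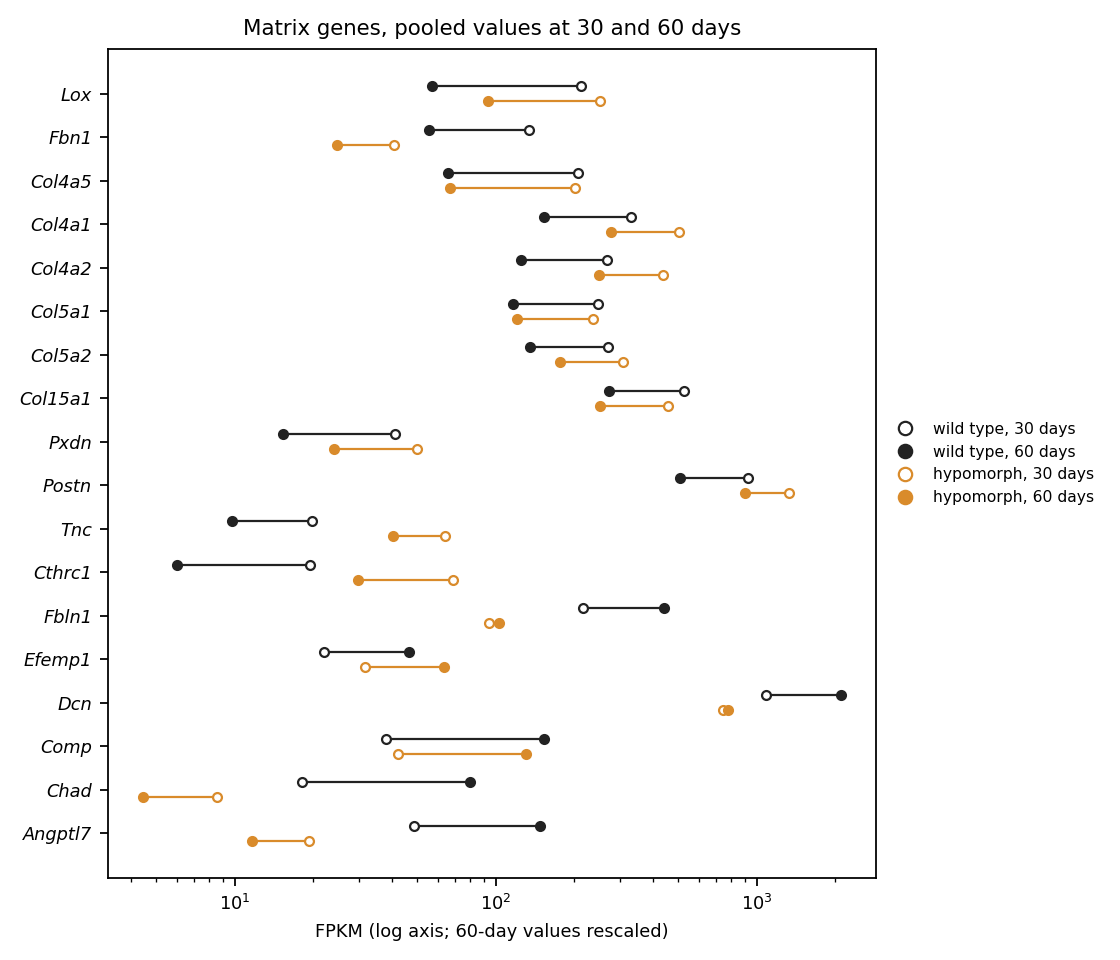
Pooled FPKM (log axis, 60-day values rescaled) of 18 matrix genes at 30 days (open) and 60 days (filled) in wild type (black) and hypomorph (orange). From Lox to Cthrc1 both genotypes were lower at 60 days; for Chad and Angptl7 only wild type was higher.

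Matricellular proteins and proteoglycans lay on both sides. Of 34 compared, 10 were at least 1.5-fold higher and 4 lower, with a median of 0.15. The 4 lower ones were Cthrc1, a secreted protein made by repairing arteries (19.4 to 6.02 FPKM), Tnc, tenascin C of growing and injured tissue (19.7 to 9.78 FPKM), Postn, periostin (924 to 509 FPKM), and Ccn4, a CCN-family signalling protein (7.42 to 4.04 FPKM). Several small leucine-rich proteoglycans were on the higher side. Dcn, decorin, which coats collagen fibrils, stood at 1089 and 2103 FPKM, Fmod, fibromodulin, at 125 and 209 FPKM, Prelp at 219 and 384 FPKM, Podn, podocan, at 43.2 and 68.4 FPKM and Lum, lumican, at 205 and 289 FPKM. Fn1, fibronectin, stood at 305 and 237 FPKM, Thbs1, thrombospondin 1, at 55.95 and 80.7 FPKM and Spp1, osteopontin, at 7.44 and 22.2 FPKM. Vcan, the large versican proteoglycan of the vessel wall, was level at 54.3 and 57.6 FPKM.

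The matrix genes with the largest positive differences are ones best known from cartilage and tendon. Comp, cartilage oligomeric matrix protein (chr8:72897447-72905964), stood at 37.9 FPKM at 30 days and 153 FPKM at 60 days, 4.03-fold higher. Chad, chondroadherin, which binds collagen and integrin (chr11:94418416-94463185), stood at 18.2 FPKM at 30 days and 79.5 FPKM at 60 days, 4.38-fold higher; its span overlaps Acsf2. Angptl7, a secreted angiopoietin-like protein, stood at 48.7 FPKM at 30 days and 147 FPKM at 60 days, and its span overlaps Mtor. Cytl1, a small secreted cytokine-like protein, stood at 307 FPKM at 30 days and 725 FPKM at 60 days. The genes that define cartilage cells were low. Col2a1 stood at 1.71 and 1.57 FPKM and Acan, aggrecan, at 6.79 and 4.94 FPKM, neither higher at 60 days, while Sox9, the factor that sets cartilage fate, stood at 4.26 and 7.38 FPKM. Of 17 cartilage genes compared, 7 were at least 1.5-fold higher (Comp, Chad, Cytl1, Epyc, Ucma, Col11a2 and Sox9) and 2 lower (Ihh and Mia), with a median of 0.40. The part of any cartilage cells in these values was not tested.

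Genes of cell division were lower, at low levels. Of 53 listed, 18 lay under the mean of 1 FPKM and 35 were compared; 17 of these were at least 1.5-fold lower and 1 higher, with a median of -0.58. Cdk1, the kinase that drives entry into mitosis (chr10:68799383-68815686), stood at 5.48 FPKM at 30 days and 0.939 FPKM at 60 days, 5.83-fold lower. Top2a, which untangles DNA before division, stood at 5.79 FPKM at 30 days and 1.63 FPKM at 60 days, 3.55-fold lower. Ube2c, which tags mitotic proteins for destruction, went from 4.65 to 1.34 FPKM, Ccna2, cyclin A2, from 3.12 to 1.44 FPKM, Birc5, survivin, from 2.42 to 1.19 FPKM, and Foxm1, the factor that switches on mitotic genes, from 1.69 to 0.481 FPKM. All of these had 16-day values within 1.5-fold of their 30-day values, for example 5.99 FPKM for Cdk1 and 6.49 FPKM for Top2a.

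Members of the list that act in copying DNA, picked out after their values were seen, lay on both sides of 0. Ccne2, cyclin E2, which starts the copying, stood at 2.55 and 1.13 FPKM, Gins2, of the replicative helicase, at 4.36 and 2.58 FPKM, Tyms, which makes thymidylate, at 5.68 and 4.46 FPKM and Pcna, the sliding clamp, at 42.8 and 38.2 FPKM. The helicase subunits Mcm2 to Mcm7 were nearer to level, with Mcm5 at 3.22 and 2.72 FPKM, Mcm2 at 3.19 and 3.04 FPKM, Mcm7 at 10.6 and 10.3 FPKM, Mcm3 at 5.37 and 5.47 FPKM, Mcm6 at 12.1 and 14.7 FPKM and Mcm4 at 5.98 and 7.46 FPKM. Ccnd1, cyclin D1, which acts before DNA copying starts, was the 1 gene of the list at least 1.5-fold higher, at 13.7 and 26.9 FPKM. The median rested on low genes: 26 of the 35 had a mean under 5 FPKM, and the 9 above it had a median of 0.02.

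The promoters of the 2 leading mitotic genes are shown for the letters known from such genes. The CHR and the CCAAT box were searched on both strands in the 250 bases before each RefSeq gene start, as TTTGAA and CCAAT. The sequences are from RefSeq on GRCm38.p6, 5′ to 3′ on the gene's strand, with matches on either strand in capitals.
Cdk1, chr10:69352913-69353162, minus strand: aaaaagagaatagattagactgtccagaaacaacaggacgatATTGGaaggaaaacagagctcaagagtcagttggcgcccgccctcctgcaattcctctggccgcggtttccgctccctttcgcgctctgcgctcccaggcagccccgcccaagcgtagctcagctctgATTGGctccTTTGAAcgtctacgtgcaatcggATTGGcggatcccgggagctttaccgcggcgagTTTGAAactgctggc
Top2a, chr11:99024190-99024439, minus strand: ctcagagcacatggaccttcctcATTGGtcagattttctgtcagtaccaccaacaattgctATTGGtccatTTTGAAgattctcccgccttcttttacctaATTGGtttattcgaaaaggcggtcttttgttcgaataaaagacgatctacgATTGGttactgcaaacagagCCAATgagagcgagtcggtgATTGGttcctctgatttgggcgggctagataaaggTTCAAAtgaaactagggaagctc
Cdk1 held 2 CHR and 3 CCAAT matches, and Top2a 2 and 6. In at least 1 promoter TTTGAA was held by 18.3% and CCAAT by 37.5% of 27025 genes (16.0% and 33.8% of 32851 promoters). Of the 24 cell cycle genes with a promoter in the table, 7 held the CHR and 20 the CCAAT box; among the 11 of them at least 1.5-fold lower the numbers were 5 and 9. A match is a description of these letters and not a site of binding.

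Growth signals showed no common direction. The insulin-like growth factors, made locally and in the liver, drive growth before and after birth, and secreted binding proteins hold them. Igf1 stood at 79.7 and 61.1 FPKM, its receptor Igf1r at 9.99 and 8.04 FPKM, and Ghr, the growth hormone receptor, at 43.02 and 38.1 FPKM. The 4 members at least 1.5-fold higher out of 19 compared were all binding proteins: Igfbp4 stood at 467 and 975 FPKM, Igfbp5 at 227 and 450.5 FPKM, Igfbp6 at 145 and 243 FPKM and Igfbp3 at 10.5 and 21.1 FPKM. Igfbp2 was level at 30.7 and 29.2 FPKM, and none of the 19 was at least 1.5-fold lower. Of 18 genes of the fetal and postnatal growth programme, 2 were lower, Grb10, an adaptor that restrains growth (36.5 and 22.1 FPKM), and Peg3, an imprinted zinc-finger gene (11.6 and 6.84 FPKM), and 2 higher, Cdkn1c, a cell cycle inhibitor (14.4 and 25.3 FPKM), and Gpc3, a glypican (89.4 and 145 FPKM). Igf2 and H19, the paired imprinted genes of fetal growth, stood at 16.4 and 21.1 FPKM and at 11.3 and 10.6 FPKM, below their 16-day values of 41.6 and 39.03 FPKM. Plagl1, which controls that network, stood at 5.57 and 4.901 FPKM and Mest at 5.599 and 4.34 FPKM.

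Most contractile genes of smooth muscle, 30 of 36, were within 1.5-fold, with 25 of the 36 below 0 and 11 above. Cnn1, calponin, stood at 469 and 497 FPKM, Smtn, smoothelin, at 435 and 487 FPKM and Lmod1, leiomodin, at 176 and 189 FPKM. Other filament proteins were on either side: Actg2, an actin of visceral smooth muscle, stood at 216 and 167 FPKM, Cald1, caldesmon, at 368 and 283 FPKM and Tpm1, a tropomyosin, at 909 and 768 FPKM, while Des, desmin, stood at 38.97 and 53.3 FPKM and Synm, synemin, at 6.49 and 9.96 FPKM. Myocd, the coactivator that drives these genes, went from 35.6 to 22.5 FPKM and Mylk, myosin light chain kinase, from 183 to 148 FPKM. The 5 of 36 at least 1.5-fold lower were Myocd, Vcl, vinculin (48.6 and 25.6 FPKM), Itga8, integrin α8 (426 and 236 FPKM), Cacna1c, the L-type calcium channel (9.45 and 4.74 FPKM), and Prkg1, the cyclic GMP kinase (6.51 and 3.27 FPKM). Mustn1 was the 1 higher (119 and 196 FPKM). The list's median was -0.26 and -0.20 once the trend with transcript length, given further on, was taken off.

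Fibroblast genes were higher. Of 22 adventitial fibroblast genes compared, 13 were at least 1.5-fold higher and none lower, against 4.77% and 3.63% of all genes, with a median of 0.65, the highest of the lists of cell types. Gsn, the actin-severing gelsolin, stood at 1809 FPKM at 30 days and 3945 FPKM at 60 days, 2.18-fold higher. Pi16, a surface marker of adventitial progenitor-like fibroblasts, stood at 568 and 981 FPKM and Clec3b, tetranectin, at 354 and 619 FPKM. Dpt, dermatopontin, stood at 526 and 770.4 FPKM and Pdgfra, the receptor that marks fibroblasts, at 35.7 and 51.8 FPKM, both under 1.5-fold. C3, the central complement protein, went from 112 to 261 FPKM and Cygb, cytoglobin, from 122 to 312 FPKM. For Pi16, Clec3b, C3 and Cygb the 16-day values were lower still (147, 103, 21.1 and 52.4 FPKM). Mfap5, counted in this list too, was the lowest member at -0.52. The list also shares Dcn, Lum and Comp with matrix lists.

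Of 24 endothelial genes compared, 3 were at least 1.5-fold higher and none lower, against 4.77% and 3.63% of all genes. The median was 0.28, and 0.15 with equal sums of FPKM. Pecam1, an adhesion protein of endothelial junctions, stood at 216 and 281 FPKM, Cdh5, their cadherin, at 30.2 and 35.1 FPKM, Vwf, von Willebrand factor, at 126 and 163 FPKM and Tie1 and Tek, receptors of the angiopoietin system, at 27.3 and 34.3 FPKM and at 26.9 and 29.96 FPKM. Nos3, which makes nitric oxide, stood at 19.1 and 31.4 FPKM, Cldn5, a tight-junction protein, at 29.3 and 50.3 FPKM and Egfl7 at 76.3 and 144 FPKM. Kdr, the main VEGF receptor, and Emcn, endomucin, stood at 5.14 and 4.23 FPKM and at 15.97 and 20.97 FPKM.

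**Figure D3:**
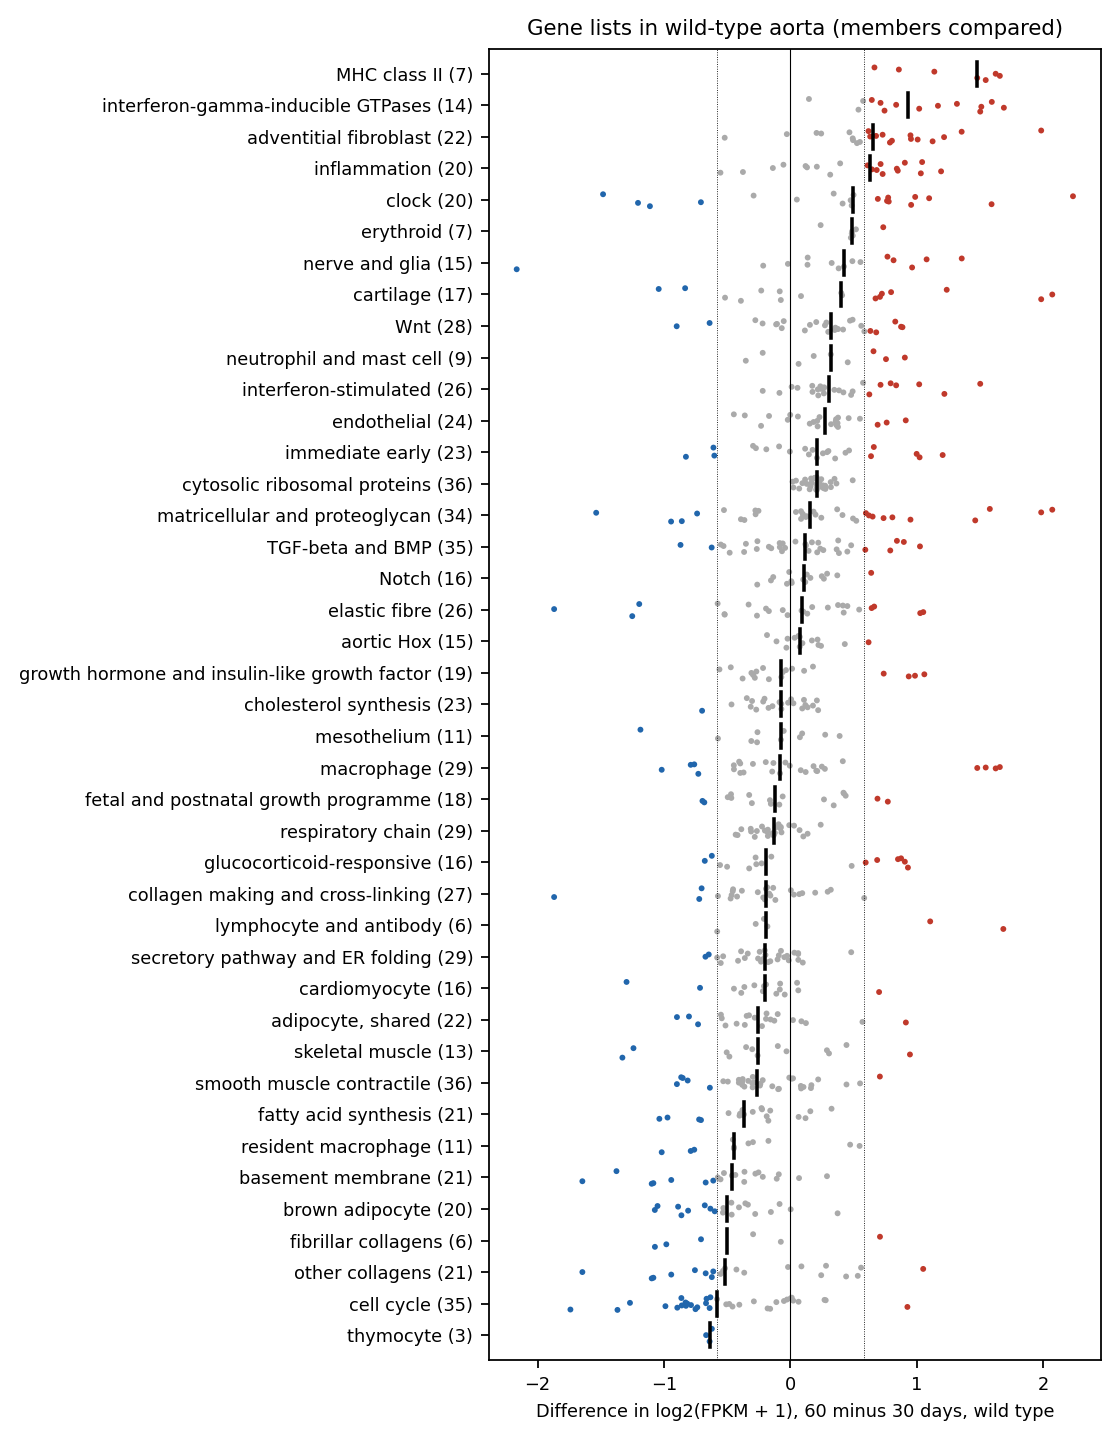
Log2(FPKM + 1) difference, 60 minus 30 days, of each gene compared (dots) in 41 gene lists in wild type, with the list median (bar), the number compared in brackets and dotted lines at 1.5-fold. Members at least 1.5-fold higher are red and lower blue. Of the 41 lists, 4 were put together after their values had been seen. MHC class II, which lies highest (median 1.48), is 1 of these 4, so its rank follows from how it was chosen. The cell cycle list has 17 of 35 lower, mostly at low levels: its 9 members averaging 5 FPKM or more had a median of 0.02.

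Of the signalling lists, the median for Wnt was 0.32, and 5 of 28 genes were past 1.5-fold upward and 2 downward. These were 17.9% and 7.14% of the list, against 4.77% and 3.63% of all genes. Wnt5a, a ligand of the non-canonical pathway, stood at 17.6 and 33.4 FPKM, Wnt11, another such ligand, at 5.42 and 10.8 FPKM and Axin2, a direct target and brake of the canonical pathway, at 3.06 and 5.498 FPKM. Wnt16, a further ligand, went the other way (24.4 and 12.6 FPKM), as did Tcf7, a nuclear partner of β-catenin that is also a T-cell gene (2.09 and 0.985 FPKM). The secreted inhibitors Sfrp1, Sfrp2, Wif1, Dkk2 and Dkk3 stood at 79.3 and 97.8 FPKM, 469 and 703 FPKM, 43.6 and 68.1 FPKM, 1.203 and 1.38 FPKM and 179 and 228 FPKM.

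The TGF-beta family, which drives matrix making and is held latent by fibrillin microfibrils, had 5 of 35 higher, 2 lower and a median of 0.12 (-0.01 with equal sums). The counts were 14.3% and 5.71% of the list, against 4.77% and 3.63% of all genes. The ligands Tgfb1, Tgfb2 and Tgfb3 stood at 29.2 and 38.4 FPKM, 28.5 and 20.1 FPKM and 81.1 and 94.05 FPKM, and the receptors Tgfbr1 and Tgfbr2 at 21.7 and 16.6 FPKM and 34.1 and 46.98 FPKM. Among targets, Tgfbi, a secreted matrix protein, stood at 150.0 and 306 FPKM and the feedback inhibitor Smad7 at 37.8 and 36.1 FPKM. Bmp4 and Gdf10, further ligands of the wider family, stood at 50.4 and 87.8 FPKM and 132 and 237 FPKM. Bmpr1a, a BMP receptor, went from 64.5 to 34.8 FPKM. In the Notch pathway 1 of 16 was at least 1.5-fold higher, Mfng, which modifies the receptor with sugar (5.07 and 8.44 FPKM). That is 6.25%, near the 4.77% of all genes, and without rescaling it was 0 of 16. The receptor Notch3, its ligand Jag1 and the targets Heyl, Hey1 and Hey2 stood at 10.9 and 8.92 FPKM, 16.1 and 15.8 FPKM, 74.3 and 74.8 FPKM, 4.91 and 5.41 FPKM and 22.2 and 22.3 FPKM.

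The genes of MHC class II antigen presentation were higher: all 7 that could be compared, of 10 listed, were at least 1.5-fold up. Class II molecules show peptides to helper T cells and are made by dendritic cells, B cells and some macrophages, and by other cells under interferon gamma. H2-Eb1, a β chain (chr17:34442828-34453144), stood at 39.9 FPKM at 30 days and 128 FPKM at 60 days, 3.21-fold higher. H2-Aa and H2-Ab1, the chains of a second class II molecule whose spans overlap, stood at 33.9 and 101 FPKM and at 36.8 and 104 FPKM. Cd74, the invariant chain that guides class II molecules through the cell, stood at 86.2 FPKM at 30 days and 268 FPKM at 60 days, 3.104-fold higher. The list was put together after its values had been seen and includes the peptide-loading H2-DMa (4.99 and 12.2 FPKM) and H2-DMb1 (7.901 and 15.1 FPKM). At 16 days H2-Eb1 had stood at 50.5 and Cd74 at 119 FPKM, so 30 days was the lowest of the 3 ages.

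The promoters of H2-Aa and H2-Eb1 are shown for the Y box, CTGATTGG, an element known from these genes, in capitals; it contains ATTGG, the CCAAT box read from the other strand. They are RefSeq sequences on GRCm38.p6, 5′ to 3′ on the gene's strand.
H2-Aa, chr17:34287824-34288073, minus strand: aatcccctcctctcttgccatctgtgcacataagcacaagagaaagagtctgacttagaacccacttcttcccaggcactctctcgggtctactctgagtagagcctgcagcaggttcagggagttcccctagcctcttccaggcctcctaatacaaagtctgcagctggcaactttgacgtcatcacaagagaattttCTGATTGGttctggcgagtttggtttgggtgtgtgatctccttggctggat
H2-Eb1, chr17:34305617-34305866, plus strand: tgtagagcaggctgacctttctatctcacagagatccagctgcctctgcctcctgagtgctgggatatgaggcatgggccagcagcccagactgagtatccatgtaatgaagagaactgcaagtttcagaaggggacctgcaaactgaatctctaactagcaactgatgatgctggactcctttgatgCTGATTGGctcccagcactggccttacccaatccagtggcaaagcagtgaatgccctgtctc
Both held 1 match. The motif was in 3.83% of the 32851 promoters, in at least 1 promoter of 4.43% of the 27025 genes, and in 2 of the 5 genes of this list that had one in the table.

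The macrophage list as a whole was not higher. Of 29 compared, 4 were at least 1.5-fold higher, and these were the class II genes Cd74, H2-Aa, H2-Ab1 and H2-Eb1. The other 25 held none higher and 4 lower: Mrc1, the mannose receptor (8.14 and 3.51 FPKM), Folr2, a folate receptor (15.6 and 8.59 FPKM), F13a1, a clotting factor subunit (16.3 and 9.18 FPKM), and Adgre1, the F4/80 antigen (4.62 and 2.39 FPKM). Csf1r, the growth factor receptor of macrophages, stood at 14.95 and 11.1 FPKM, Cd68 at 11.1 and 10.5 FPKM, Itgam at 2.27 and 1.53 FPKM, Lyz2, lysozyme, at 115 and 104 FPKM and Ctss, the protease that trims the invariant chain, at 17.5 and 19.2 FPKM. Among 11 genes of resident macrophages, chosen after values were seen, 3 were lower, none higher and the median was -0.45. This list overlaps the macrophage list, with Mrc1 the lowest member of both, so the counts are not separate.

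Lymphocyte genes were low at both ages, with 20 of 26 under a mean of 1 FPKM. Trbc2, a T-cell receptor constant gene, stood at 3.15 and 1.78 FPKM, Ptprc, the common leukocyte antigen, at 2.06 and 1.64 FPKM and Ighm, the IgM heavy chain, at 9.56 and 7.72 FPKM. Igkc and Ighg2b, antibody genes, were the 2 of 6 at least 1.5-fold higher (2.54 and 10.4 FPKM and 0.393 and 1.997 FPKM). Trbc2 had been at 22.4 FPKM at 16 days. The 3 thymocyte genes above that mean, of 15, were all at least 1.5-fold lower: Tcf7 stood at 2.09 and 0.985 FPKM, Satb1 at 4.89 and 2.71 FPKM and Cd1d1 at 7.29 and 4.38 FPKM. Of neutrophil and mast cell genes, 3 of 9 were higher: Lcn2, lipocalin 2 (1.29 and 3.29 FPKM), Mcpt4, a mast cell protease (5.37 and 9.75 FPKM), and Gata2, a transcription factor (7.600 and 12.6 FPKM). S100a8, S100a9 and Cpa3 stood at 2.14 and 2.29 FPKM, 2.99 and 4.46 FPKM and 2.72 and 1.91 FPKM. The part of immune cell number in the class II values was not tested.

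Interferon-inducible genes were higher, most of all the GTPases that attack the vacuoles of microbes. Of 14 such GTPases, a list made after values were seen, 11 were at least 1.5-fold higher, none lower, and the median was 0.93. Igtp stood at 8.504 and 25.9 FPKM, Iigp1 at 10.2 and 21.6 FPKM, Tgtp1 at 2.21 and 9.35 FPKM, Tgtp2 at 4.09 and 13.5 FPKM and Gbp4 at 3.36 and 12.1 FPKM. Tgtp1 and Tgtp2 are near copies in 1 cluster with overlapping spans, and the Gbp genes are a tandem family, so reads may be split among them. Of the 26 interferon-stimulated genes compared, 7 were at least 1.5-fold higher and none lower, with a median of 0.31. On the GTPase list too are 4 of the 7 (Gbp2, Gbp3, Iigp1 and Igtp). Ifit3 and Ifit1, antiviral proteins, stood at 10.3 and 25.2 FPKM and at 2.07 and 3.74 FPKM, and Psmb8, a subunit of the immunoproteasome, at 17.3 and 30.7 FPKM. Irf7, Isg15 and Oas2 were nearer to level, at 10.4 and 12.2 FPKM, 8.098 and 11.7 FPKM and 1.13 and 1.01 FPKM.

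Of 20 inflammation genes compared 11 were at least 1.5-fold higher and none lower, against 4.77% and 3.63% of all genes, with a median of 0.63. Vcam1 and Icam1, which hold leukocytes to endothelium, stood at 27.1 and 56.4 FPKM and at 13.9 and 25.6 FPKM. Ccl11, the eotaxin that draws eosinophils, went from 12.8 to 30.5 FPKM and Il33, an alarm cytokine of stromal cells, from 23.2 to 48.8 FPKM. Cxcl12, made by stromal cells, stood at 115 and 184 FPKM. The monocyte chemokine Ccl2 was low at 1.85 and 2.55 FPKM, and Cxcl1, which draws neutrophils, stood at 0.876 and 2.11 FPKM.

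The circadian clock genes moved in both directions. In this clock BMAL1 (Arntl) pairs with CLOCK or NPAS2 and switches on the Per and Cry repressors, Dbp and the Nr1d genes through E-boxes, and the NR1D proteins repress Arntl in turn, so the 2 groups peak at opposite times of day. Arntl stood at 3.52 FPKM at 30 days and 1.09 FPKM at 60 days, 3.22-fold lower, and its partners Npas2 and Clock at 5.05 and 1.62 FPKM and at 9.396 and 5.36 FPKM. Nfil3, a repressor of genes that DBP activates, stood at 11.2 FPKM at 30 days and 3.38 FPKM at 60 days, 3.32-fold lower (chr13:53062578-53076442).

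On the other side, Ciart, a repressor of BMAL1 and CLOCK (chr3:95675445-95695928), stood at 2.93 FPKM at 30 days and 17.5 FPKM at 60 days, 5.97-fold higher; its span overlaps BC028528. Dbp, a transcription factor that is a direct clock output, stood at 97.5 FPKM at 30 days and 296 FPKM at 60 days, 3.03-fold higher; its span overlaps Rpl18 and Sphk2. Per2, Per3 and Cry1 were higher too, at 7.12 and 14.7 FPKM, 7.82 and 14.1 FPKM and 1.42 and 3.103 FPKM. Per1 and Nr1d1 were under 1.5-fold, at 32.5 and 45.8 FPKM and 141 and 188 FPKM. Hlf, a relative of Dbp, stood at 13.5 and 30.00 FPKM and Bhlhe41, a further repressor, at 8.61 and 18.03 FPKM. In all, 9 of the 20 clock genes lay past 1.5-fold upward and 4 downward. In the hypomorph none of the 20 passed 1.5-fold in either direction, against 5.21% and 3.16% of its 14140 genes. With 20 genes a count of 0 is near such shares, and the highest value, 0.583, lay just under the 1.5-fold limit of 0.585. The range was -0.52 to 0.583 in the hypomorph and -1.48 to 2.23 in wild type. The time of day at which tissue was taken is not given in the sources used here.

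**Figure D4:**
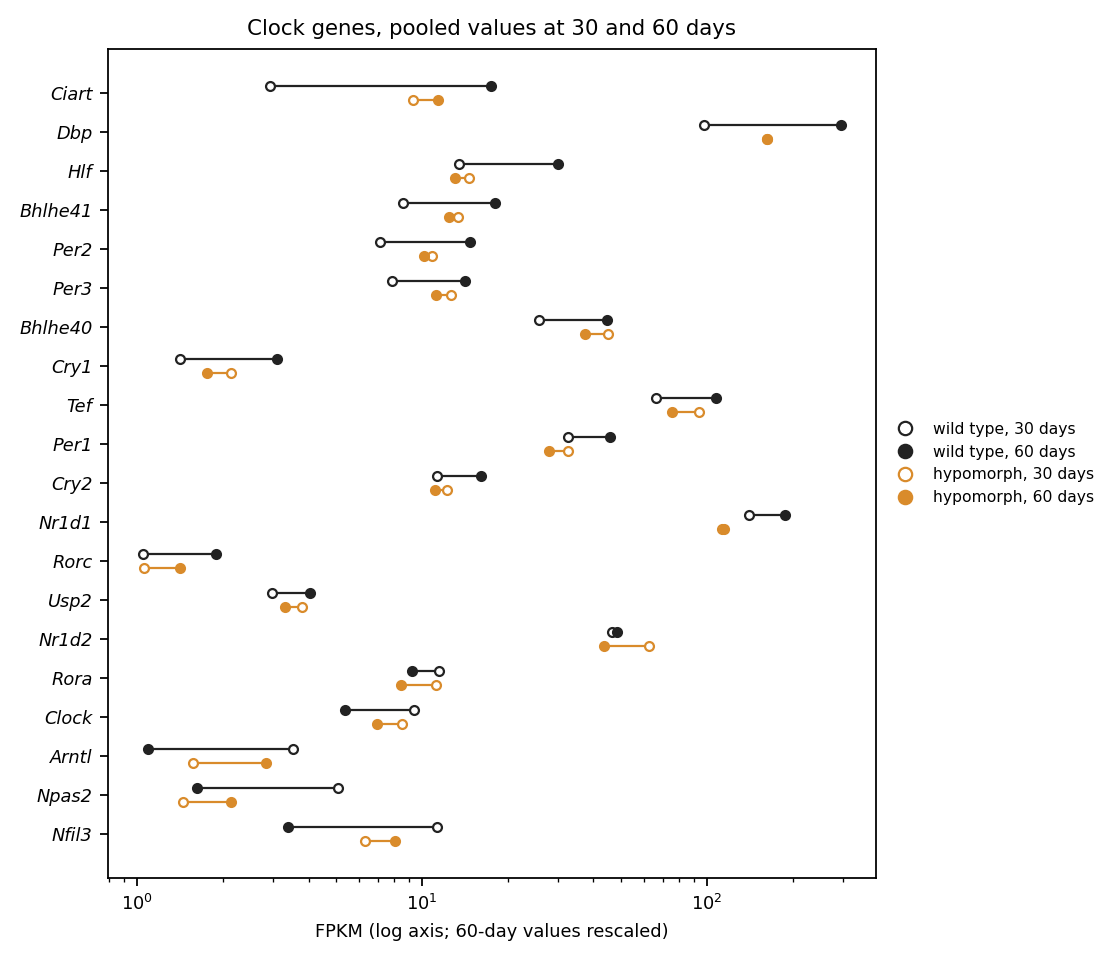
Pooled FPKM (log axis, 60-day values rescaled) of the 20 clock genes at 30 days (open) and 60 days (filled) in wild type (black) and hypomorph (orange). In wild type Ciart went from 2.93 to 17.5 FPKM and Arntl from 3.52 to 1.09 FPKM. In the hypomorph none of the 20 passed 1.5-fold on the log2(FPKM + 1) scale, with the highest at 0.583 against a limit of 0.585.

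The promoters of the clock genes with the largest and the most negative difference are shown with the E-box CACGTG (Ciart) and the ROR and REV-ERB element TAGGTCA, here on the other strand as TGACCTA (Nfil3), in capitals. They are RefSeq sequences on GRCm38.p6, 5′ to 3′ on the gene's strand.
Ciart, chr3:95882229-95882478, minus strand: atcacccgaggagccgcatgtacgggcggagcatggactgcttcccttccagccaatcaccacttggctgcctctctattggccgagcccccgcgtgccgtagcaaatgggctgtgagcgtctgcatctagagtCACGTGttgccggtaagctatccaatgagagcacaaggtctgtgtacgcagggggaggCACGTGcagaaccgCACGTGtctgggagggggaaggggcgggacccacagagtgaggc
Nfil3, chr13:52981040-52981289, minus strand: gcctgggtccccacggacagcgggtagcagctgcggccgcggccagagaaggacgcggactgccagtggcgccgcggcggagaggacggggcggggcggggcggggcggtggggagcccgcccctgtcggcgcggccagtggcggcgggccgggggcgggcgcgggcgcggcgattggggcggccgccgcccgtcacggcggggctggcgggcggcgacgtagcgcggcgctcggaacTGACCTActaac
The E-box was in 6.02% of the 32851 promoters and TAGGTCA in 2.23%, and in at least 1 promoter of 6.86% and 2.55% of the 27025 genes. Ciart held 3 E-boxes. Of the 17 clock genes with a promoter in the table, 5 held CACGTG, among them 4 of the 7 that were at least 1.5-fold higher and 0 of the 4 lower; Nfil3 was the 1 with TAGGTCA.

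Immediate early genes, which cells switch on within minutes of a stimulus or of handling, were mixed: 5 of 23 were at least 1.5-fold higher and 3 lower. Junb and Egr1 stood at 13.3 and 31.9 FPKM and at 20.8 and 43.3 FPKM, Nr4a1 at 25.8 and 40.7 FPKM and Atf3 at 34.6 and 19.1 FPKM, while Fos and Jun stood at 6.21 and 8.21 FPKM and at 52.7 and 61.1 FPKM. Genes that answer to glucocorticoids, which also follow a daily rhythm, had 6 of 16 higher and 2 lower. Their median was -0.19, with 9 of the 16 below 0 and 7 above. Tsc22d3, a direct target, stood at 64.96 and 125 FPKM and the metallothioneins Mt1 and Mt2 at 325 and 523 FPKM and 94.01 and 170.3 FPKM, but Fkbp5, Zbtb16 and Sgk1, other direct targets, stood at 36.3 and 28.7 FPKM, 20.8 and 14.4 FPKM and 45.03 and 30.3 FPKM.

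Fat genes were lower in wild type. Perivascular fat surrounds the aorta and in mice has much of the character of brown fat. Of 20 brown adipocyte genes 8 were at least 1.5-fold lower and none higher, against 3.63% and 4.77% of all genes, with a median of -0.50. Ucp1, the uncoupling protein that makes heat, stood at 67.1 FPKM at 30 days and 36.5 FPKM at 60 days, Cidea, a lipid droplet protein, at 61.2 and 44.03 FPKM, Prdm16, which sets brown fat fate, at 16.03 and 10.8 FPKM, Dio2, which activates thyroid hormone, at 20.2 and 26.4 FPKM and Otop1, an ion channel, at 3.79 and 1.28 FPKM. Elovl3 and Ppargc1a were near 1 FPKM at both ages (1.27 and 0.867 FPKM and 1.14 and 0.926 FPKM). Of 22 shared adipocyte genes 3 were lower (13.6%) and 1 higher (4.55%), with a median of -0.25. Adipoq, adiponectin, stood at 66.3 and 56.6 FPKM, Plin1, the lipid droplet coat, at 29.8 and 20.5 FPKM, Fabp4, a fatty acid carrier, at 711 and 553 FPKM, Pparg, the master factor of fat cells, at 7.74 and 4.27 FPKM, Lpl, lipoprotein lipase, at 100.5 and 74.5 FPKM and Cidec at 54.9 and 59.9 FPKM.

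The enzymes of fatty acid synthesis lay on the same side, with 4 of 21 at least 1.5-fold lower, none higher and a median of -0.37. Scd1, the stearoyl-CoA desaturase (chr19:44468941-44482199), stood at 303 FPKM at 30 days and 147 FPKM at 60 days, 2.06-fold lower, after 28.98 FPKM at 16 days. Acly and Acaca, which make acetyl-CoA and malonyl-CoA, stood at 58.5 and 35.1 FPKM and at 20.8 and 12.3 FPKM, Elovl6, an elongase, at 5.36 and 2.24 FPKM, Fasn, the synthase itself, at 199 and 176 FPKM and its regulator Srebf1 at 51.9 and 56.4 FPKM. Cholesterol synthesis was near level, with a median of -0.07 and 1 of 23 past 1.5-fold. Sqle, Insig1 and Srebf2 stood at 6.92 and 5.56 FPKM, 15.95 and 15.1 FPKM and 27.8 and 29.7 FPKM.

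Traces of other tissues were checked in the same way. Of 16 heart muscle genes compared, 13 lay below 0 and 3 above. Myh6, a cardiac myosin heavy chain, stood at 45.1 and 43.7 FPKM, Nppa, the atrial peptide, at 15.7 and 14.4 FPKM, Actc1 at 59.9 and 45.5 FPKM and Myl7 at 59.3 and 50.8 FPKM. At least 1.5-fold lower were 2, Tnnc1 and Myl2 (log2 differences of -1.30 and -0.72), and 1 was higher, Tnnt2 (78.6 and 128 FPKM). These were 12.5% and 6.25%, against 3.63% and 4.77% of all genes. Of 13 skeletal muscle genes compared, 2 were at least 1.5-fold lower, Acta1 and Casq1 (log2 differences of -1.33 and -1.24), and 1 higher, Mylpf. These were 15.4% and 7.69%, against 3.63% and 4.77% of all genes. Together the 13 genes stood at 253 and 198 FPKM. Low genes were Ckm (8.197 and 5.58 FPKM), Tnnt3 (2.59 and 1.99 FPKM), Mylpf (0.557 and 1.998 FPKM) and Acta1 (2.51 and 0.397 FPKM). Myh4 was listed at 0 at both ages. Beside the higher value of Tcap, these 2 lists had medians of -0.20 and -0.26. Red cell genes were higher by a like amount: the hemoglobin genes Hba-a1 and Hbb-bs stood at 2456 and 3419.5 FPKM and at 2327 and 3262 FPKM, and Alas2, the heme enzyme of red cells, at 22.9 and 32.6 FPKM. The near-identical hemoglobin copies can share reads. Of 11 mesothelium genes 1 was past 1.5-fold, Slpi (5.04 and 1.65 FPKM), and Msln, Upk3b, Wt1 and Lrrn4 stood at 15.1 and 12.4 FPKM, 22.8 and 18.2 FPKM, 1.32 and 1.198 FPKM and 3.06 and 1.73 FPKM.

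Of 15 nerve and glia genes, 5 lay past 1.5-fold upward and 1 downward, with a median of 0.42. Of the glial markers, S100b stood at 5.89 and 12.4 FPKM and Sox10, the factor of Schwann cells, at 1.51 and 2.36 FPKM. Stmn2 and Npy, genes of neurons, stood at 5.33 and 9.76 FPKM and at 3.95 and 9.44 FPKM.

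The lists of housekeeping functions had few members past 1.5-fold. All 36 ribosomal protein genes were above 0 on the log2 scale, from 0.02 to 0.49 with a median of 0.21, and none reached 1.5-fold. Rpl3, Rpl4, Rps3, Rps6 and Rplp0 stood at 401 and 464 FPKM, 544 and 626 FPKM, 404 and 449 FPKM, 449 and 544 FPKM and 803 and 842 FPKM. The 29 nuclear genes of the respiratory chain had a median of -0.13, 24 below 0 and none past 1.5-fold, with Ndufa4, Cox4i1, Atp5a1, Uqcrc1 and Sdha at 261 and 215 FPKM, 496 and 532 FPKM, 301 and 265 FPKM, 98.5 and 89.7 FPKM and 156 and 117 FPKM. The secretory pathway, which folds and ships matrix proteins, ranged from -0.67 to 0.48 with a median of -0.20 and 2 of 29 at least 1.5-fold lower, Sec23a, a coat protein of vesicles that carry collagen (35.7 and 22.04 FPKM), and Kdelr3, which returns escaped proteins (88.7 and 56.3 FPKM). Its chaperone Hspa5 stood at 347 and 237 FPKM, Xbp1, the factor that enlarges the pathway, at 110.2 and 82.4 FPKM and Creb3l1, a factor for collagen secretion, at 42.03 and 37.5 FPKM. Hox genes, which mark position along the body, kept their levels: Hoxa3 stood at 22.3 and 21.8 FPKM, Hoxa5 at 7.82 and 8.28 FPKM and Hoxc6 at 2.34 and 2.95 FPKM. The 1 of 15 at least 1.5-fold higher (6.67%, near the 4.77% of all genes) was Hoxa9, at 1.41 and 2.703 FPKM.

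Differences went with transcript length. Across 13190 genes with a known length, Spearman's rho between length and log2 difference was -0.28, a description across genes of the same pools. In 10 equal bins of length, the bin with the shortest transcripts (median 692 bases) had a median difference of 0.11 and the bin with the longest (8092 bases) one of -0.18. Ribosomal protein transcripts had a median length of 1139.5 bases. With the median of each bin subtracted, an alternative chosen after seeing the data, the medians were -0.36 for fibrillar collagens, -0.43 for other collagens, -0.34 for basement membrane genes and 0.12 for ribosomal proteins, and all 41 list medians kept their sign.

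The hypomorph pools at 30 and 60 days, other animals listed in the same tables, were set beside these values. Of the 132 genes at least 2-fold higher in wild type, 131 could be compared in the hypomorph, 101 (77.1%) lay above 0 there, 50 were at least 1.5-fold higher (5.21% of all its genes) and 21 at least 2-fold higher (1.9%). Of the 75 lower genes, 63 (84.0%) lay below 0, 40 were at least 1.5-fold lower (3.16%) and 15 at least 2-fold lower (0.509%). Among genes under 1.5-fold in wild type, 67.8% of those above 0 and 68.6% of those below 0 were on the same side. Across 13719 genes the 2 sets of differences had a Pearson r of 0.44 and a Spearman rho of 0.49; the pools of both genotypes at 1 age share a table.

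The matrix genes that were lower in wild type were lower in the hypomorph as well. Lox stood at 251 and 93.2 FPKM there at 30 and 60 days, Pi15 at 87.2 and 32.1 FPKM, Col4a5 at 201 and 66.9 FPKM, Cthrc1 at 68.7 and 29.8 FPKM and Fbn1 at 40.9 and 24.6 FPKM. The medians of the fibrillar and other collagens were -0.89 and -0.69 in the hypomorph. Cell division genes were lower from a higher start, with Cdk1 at 18.9 and 8.07 FPKM and Top2a at 15.1 and 8.65 FPKM. Class II genes were higher from a higher start, with H2-Eb1 at 119 and 497 FPKM and Cd74 at 258 and 1033 FPKM, and Comp stood at 42.2 and 130.5 FPKM.

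Other groups took a different course in the 2 genotypes, a difference that has no test here. Adventitial fibroblast genes had a median of 0.05 in the hypomorph against 0.65 in wild type, with Gsn at 791 and 872 FPKM and Dcn at 743 and 777 FPKM. Shared adipocyte genes had a median of 1.22 against -0.25 and fatty acid synthesis 0.45 against -0.37, with Scd1 at 95.7 and 252 FPKM and Adipoq at 30.5 and 100.2 FPKM. Macrophage genes had a median of 0.75 against -0.08, and inflammation genes -0.26 against 0.63. Chad and Angptl7 stood at 8.53 and 4.43 FPKM and at 19.2 and 11.6 FPKM, lower at 60 days where wild type was higher. Inmt and Tcap, among the largest positive differences in wild type, stood at 38.5 and 45.2 FPKM and at 101 and 133 FPKM. In all, 8 of the 131 higher genes were at least 1.5-fold lower in the hypomorph, against 3.16% of all its genes. Of the 75 lower genes, 5 were at least 1.5-fold higher there, which is near the 5.21% of all its genes.

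**Figure D5:**
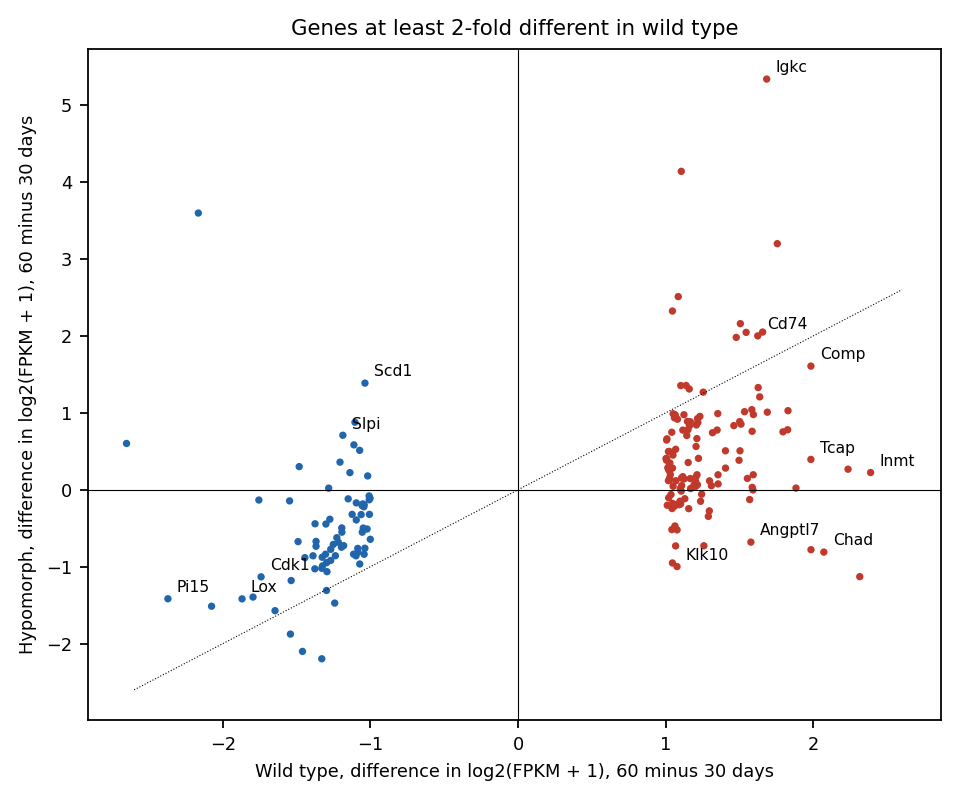
Log2(FPKM + 1) difference, 60 minus 30 days, in wild type (horizontal) and hypomorph (vertical) for the genes at least 2-fold higher (red, 131) or lower (blue, 75) in wild type, 1 dot per gene, with the dotted line of equal differences. Of the red genes 101 lie above 0 in the hypomorph and of the blue genes 63 below 0; Chad and Angptl7 are among those on the other side.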

How the data were processed

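RNA of whole aorta had been sequenced, and the authors deposited FPKM values in which each group has 1 pooled value per gene. Per the submitters' processing notes, the tools were Cufflinks 1.3.0, SAMtools 0.1.7, Bowtie2 2.1.0 and TopHat2 2.0.8, with mouse build mm9; settings are not given in the sources used here. Wild-type values were listed 3 times per table. At 30 days 17 genes, and at 60 days 11, had listings that differed, with the larger one used here. Row groups that fit no label (2) were left out. No depth is given, so no counting error could be stated.

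The 60-day values were multiplied by the median ratio of genes with at least 5 FPKM at both ages (1.06 for wild type, 0.9996 for the hypomorph; 16-day values by 0.99). Genes at 0 at either age or under a mean of 1 FPKM were left out, and differences were taken on log2(FPKM + 1). The plan had allowed for limma on values per library, which pooled values do not permit. Genes were named by rule: the 15 largest and 15 most negative differences with a symbol, Fbn1, the core members of each list described and up to 4 more of its members with the largest differences. Others are named as exceptions, as members that passed a fold, or as values set beside a result, and were chosen after their values were seen. The 38 planned lists (1 a check of the sex label) and 4 added ones, and the genes described, were chosen with earlier results of these data known. Values of some genes that meet these rules are not reported here. Symbols and lengths came from GENCODE M21 and promoters from RefSeq. The calculations, in Python 3.11.15, numpy 2.4.6, pandas 2.3.3, scipy 1.17.1 and matplotlib 3.10.9, were tested on simulated data. Alternatives were other scalings, pseudocounts and level filters, and, chosen after seeing the data, removal of a length trend and a restriction to the authors' status OK.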

Additional observations from a re-analysis of the deposited data

How the results depend on the processing

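No paired analysis was possible because the pools hold no value per library, so the fit with a replicate block and the fits without each replicate were not run. The counts of genes past a fold followed the scaling. With the sums of FPKM made equal, 80 genes lay past 2-fold upward and 126 downward, and 424 and 834 past 1.5-fold; this scaling moves the median of all genes by -0.11 on the log2 scale. A pseudocount of 0.1 FPKM gave 260 genes 2-fold higher, 165 lower and 776 at least 1.5-fold lower. A mean of at least 5 FPKM left 40 genes 2-fold lower and 315 at least 1.5-fold lower, and status OK at both ages left 300 of the latter; fewer genes are tested under both. A mean of at least 5 FPKM also turned the medians of 4 lists: cell cycle to 0.022 over 9 genes, fetal and postnatal growth programme from -0.12 to 0.26, lymphocyte and antibody from -0.20 to 0.70 over 2 genes, and TGF-beta and BMP from 0.12 to -0.0016. Of 41 list medians, 22 were below 0, and 20 to 26 over all alternatives; 4 changed sign with the scaling, all within 0.12 of 0. The share of 2-fold genes on the same side in the hypomorph ranged from 70.0% to 83.3% for higher genes and from 82.4% to 87.3% for lower ones. The depth behind each value is unknown, so low genes carry an error that cannot be stated.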

Other observations

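Several interferon-inducible GTPases were lower in the 30-day pool than in either other wild-type pool. On the 30-day scale Igtp stood at 21.8 FPKM at 16 days, 8.50 at 30 days and 25.9 at 60 days. Iigp1, a relative that coats vacuoles of microbes, stood at 26.1, 10.2 and 21.6 FPKM at the 3 ages, and Gbp4 at 10.3, 3.36 and 12.1 FPKM. The 30-day pool is shared by both steps, so these values show only that it was the lowest of the 3.

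Among abundant genes that could not be compared, Bgn (biglycan), Sparc and 4 mitochondrially encoded genes (mt-Co1, mt-Co3, mt-Atp6 and mt-Atp8) were listed at 0 at 30 days, against 3554 FPKM for Bgn, 3572 FPKM for Sparc and 13188 FPKM for mt-Co1 at 60 days.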
